A study of Drosophila melanogaster with 5 samples.

Results

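The 33 genes described here encode the kinesin and cytoplasmic dynein motors of Drosophila, their subunits and a few of their partners, and were taken by symbol from a list of axonal transport and mitotic motors with dynein subunits. All 33 symbols were found among the 16463 genes that both the CuffDiff and the DESeq table hold. Of these, 32 matched letter for letter and Milt matched the gene the files write as milt. The genes fall into 8 transport kinesins and their subunits, 12 mitotic and meiotic kinesins, 3 kinesins of other or unsettled role, 8 genes of dynein, dynactin and their regulators, and 2 adaptors that tie motors to mitochondria.

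The samples were whole larval CNS, each a pool of about 15 taken 84 h after egg laying and grown at 25°C, and the comparison addresses which transcripts depend on the IP3R, the Ca2+ release channel of the endoplasmic reticulum. The 3 control samples carried UAS-dsitpr and UAS-dicer, both heterozygous and with no driver. In the 2 IP3R knockdown samples the labels add ElavC155GAL4, a driver active in neurons, to the same transgenes, as does a figure legend of the study, whereas its methods name VGN6341GAL4. Presence of a driver, and with it expression of the dicer transgene, thus also separates the groups. The files give 1 value per gene and group, so every level below is the authors' mean over 3 control or 2 knockdown libraries, with no spread over libraries and no test. The libraries were biological replicates by the study's methods, and none of the differences below could be set against the spread among them.

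Motor proteins walk along microtubules by hydrolysing ATP. Most kinesins move toward the plus end, which in axons points to the terminal, and carry vesicles and organelles outward, while cytoplasmic dynein with its activator dynactin brings cargo back to the cell body. Other kinesins work in dividing cells, where they slide spindle microtubules apart, shorten their ends or carry chromosomes. The larval CNS holds both kinds of cell, neurons with long processes and neuroblasts with their dividing progeny.

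Levels are given as FPKM, fragments per kilobase of transcript scaled to the library's fragments, and as mean normalized counts, which are not per length. FPKM is per length, so levels of different genes can be set side by side, but only roughly. The authors removed PCR duplicates, and by the study's methods most reads were taken out in that step. Such removal can cap the counts of abundant transcripts. The part of such a cap in the levels and ratios below was not tested. A gene was called lower where knockdown over control came to 0.75 or less in both tables and higher where the knockdown mean exceeded control by 25% or more in both, the minimum change of the study. Of the list, Klp59C and Klp59D lay under a mean FPKM of 1. The remaining 31 genes passed that minimum, and 11237 genes of all did.

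Transcripts of motor genes were mostly within 25% of the control level. Of the 31 genes above the minimum, 2 were lower, Dhc64C and Khc-73, 1 was higher, Klp54D, and 28 were neither. The share of all genes that was lower by the same rule was 14.5%, and the share that was higher was 12.2%, against 6.45% and 3.23% of the motor genes. Among genes with a mean FPKM of at least 5, which all 31 had, the shares were 12.9% and 8.7%. Both shares varied with summed exon length. In its deciles 8, 9 and 10, counted from the shortest, 4.32%, 2.70% and 1.44% of genes were higher. In the same deciles 6.39%, 13.6% and 47.6% of genes were lower. These deciles hold 10, 7 and 6 of the motor genes. With a ratio of at most 0.8 as the limit, 5 motor genes were lower (17.8% of all genes), and with at least 1.2 only Klp54D was higher (14.7% of all genes). No motor gene was at or under a ratio of 0.5 or at or above 2, where 5.26% and 2.59% of all genes lay. The median log2 ratio of the 31 genes was -0.07 in FPKM, and that of all 11237 genes was 0.03.

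**Figure D1:**
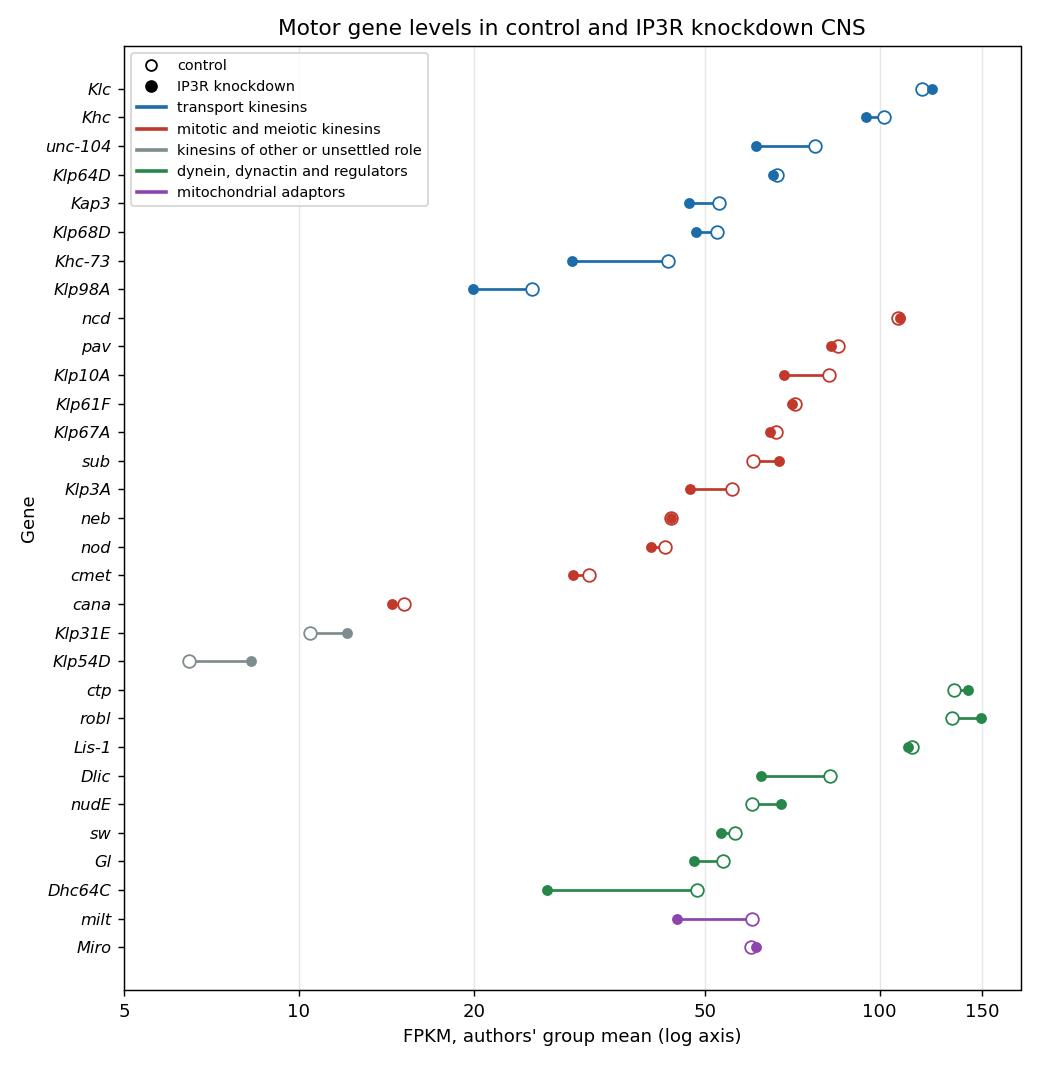
Level of each of the 31 motor genes above the minimum, in FPKM on a log axis, with the authors' control mean as an open circle, the IP3R knockdown mean as a filled circle and a line between them, coloured by class. The longest line is that of Dhc64C, from 48.4 to 26.7 FPKM, and most of the mitotic and meiotic kinesins have nearly coinciding circles.

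Cytoplasmic dynein is built on a pair of heavy chains that hold the ATPase ring and the microtubule-binding stalk, to which intermediate, light intermediate and light chains attach. Dhc64C, the heavy chain gene, lies on chromosome 3L from 4807368 to 4825687 on the minus strand (dm6). Its FPKM was 48.4 in the control and 26.7 in the knockdown group, and its mean normalized counts were 8091 and 4506. The knockdown level was thus 55.1% of control in FPKM and 55.7% in counts, a log2 ratio of -0.86 and -0.84. This was the lowest ratio of the 31 genes in both tables. Dhc64C shares 39 exon bases with CG18808 on the same strand, a small part of its length.

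The other dynein chains did not share this ratio. Transcripts of sw, the intermediate chain that binds dynactin, stood at 56.4 FPKM in control and 53.3 in knockdown, a log2 ratio of -0.08. Dlic, the light intermediate chain that meets cargo adaptors, had 82.2 and 62.5 FPKM, a log2 ratio of -0.40, but only -0.28 from mean normalized counts of 2657 and 2190. Neither ratio reached the limit, and Dlic was not called. The light chain genes ctp (134 and 142 FPKM) and robl (133 and 149 FPKM) stood above control, with log2 ratios of 0.08 and 0.16 in FPKM and 0.17 and 0.18 in counts. In the control group, ctp and robl transcripts were 2.77 and 2.76 times as abundant per length as those of Dhc64C, and in the knockdown group 5.31 and 5.59 times. The heavy chain was the least abundant of the 5 chains in both groups. LC8, the protein of ctp, is also used outside dynein, and Cdlc2 encodes a near copy of it whose reads may not be fully separable from those of ctp.

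Dynactin and the regulators of dynein stayed near the control level. Gl, which the current annotation names DCTN1-p150 and which encodes the large dynactin subunit, had 53.7 FPKM in control and 47.9 in knockdown (log2 ratio -0.16). Lis-1, which helps dynein to bind microtubules and adopt its active form, had 114 and 112 FPKM, with a log2 ratio of -0.02 in FPKM and 0.08 in counts. Transcripts of nudE, which recruits Lis-1 to dynein, stood at 60.3 and 67.6 FPKM (0.17). The sign for Lis-1 thus differed between the tables. Over the 8 genes of this class the median log2 ratio was -0.05 in FPKM and 0.01 in counts. As measured, the heavy chain stood apart from its class, at -0.86 and -0.84. Dhc64C is also the longest gene of the class, with 14597 exon bases, and the next, ctp, has 4645. With the median of the genes nearest in exon length subtracted, the FPKM value was -0.24 for Dhc64C and -0.28 for Dlic. With the median of the length decile subtracted, Dhc64C stood at -0.43 in FPKM and -0.42 in counts, and Dlic at -0.34 and -0.24. The part of length in this contrast was not tested.

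A list of other dynein and dynactin genes, which holds several older and newer symbols for the same genes, had 13 symbols in the tables. They were matched by symbol only, and whether p24-2 among them is a dynactin gene was not checked. Of the 13 symbols, 1 was lower (7.69%) and none higher, against 14.5% and 12.2% of all genes. The median log2 ratio was 0.04. The lower gene was Cdlc2, the second LC8 gene, with 2.68 FPKM in control and 0.48 in knockdown, a log2 ratio of -2.48. Its mean normalized counts were 14.9 and 2.33, about 45 reads over the control libraries and 5 over the knockdown libraries, which gives its log2 ratio a standard error of 0.70 from counting alone. The axonemal dynein heavy chains, which drive cilia and sperm tails, served as a contrast. They were nearly absent, with 3 of 8 at 0 in both groups and only Dhc62B above the minimum, at 2.48 and 0.97 FPKM (log2 ratio -1.35). Among the dynein heavy chain genes examined here, Dhc64C thus had by far the most transcript. Heavy chain genes outside these lists were not looked at.

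Kinesin-1, the main motor of fast outward transport, was near its control level. Khc, its heavy chain, stood at 102 FPKM in control and 94.9 in knockdown (log2 ratio -0.10), and Klc, the light chain that holds cargo, at 118 and 123 FPKM (0.06). The light chain was 1.16 times as abundant as the heavy chain per length in control and 1.30 times in knockdown. Kinesin-2 joins a pair of different motor chains, Klp64D and Klp68D, with the non-motor subunit Kap3. Their FPKM were 66.6 and 65.4 for Klp64D, 52.5 and 48.3 for Klp68D, and 52.9 and 47.0 for Kap3, in control and knockdown. The corresponding log2 ratios were -0.03, -0.12 and -0.17, and the most abundant of the 3 was 1.27 times the least abundant in control and 1.39 times in knockdown.

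Of the transport kinesins, the 3 of the kinesin-3 family had the lowest ratios. This grouping was made after their values were seen. The 3 genes are also the longest of the class, with 9177 (Khc-73), 8066 (unc-104) and 5530 (Klp98A) exon bases. With the median of the genes nearest in exon length subtracted, their FPKM log2 ratios were -0.02, 0.13 and -0.07. By that measure Klp68D was the lowest of the class, at -0.12, and unc-104 the highest. Whether the low ratios go with the family or with length was not tested. Khc-73, a kinesin-3 with a role in endosome transport and spindle orientation, lies on chromosome 2R from 15515778 to 15532259 on the minus strand (dm6). It had 43.2 FPKM in control and 29.5 in knockdown, with mean normalized counts of 3875 and 2619, so that 68.3% and 67.6% of the control level were left (log2 ratios -0.55 and -0.57). The motor of synaptic vesicle precursors, unc-104, had 77.5 and 61.3 FPKM (log2 ratios -0.34 and -0.35), and the endosomal motor Klp98A 25.2 and 19.95 FPKM (-0.34 and -0.35). Both ratios lay between 0.75 and 0.8, and unc-104 shares 168 exon bases with CG42392 on the same strand. Among the 31 genes, unc-104 was second to Dhc64C in mean normalized count in the control group, at 7566 against 8091. Over the 8 transport kinesins, 7 ratios were under 1 and the median log2 ratio was -0.15.

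Mitochondria ride on kinesin-1 through the adaptor milt, which binds the motor, and Miro, a GTPase in the outer mitochondrial membrane. Transcripts of milt stood at 60.3 FPKM in control and 44.8 in knockdown, a log2 ratio of -0.43, and at -0.37 from mean normalized counts of 2723 and 2114. The ratio was thus 0.743 in FPKM and 0.776 in counts, on either side of the limit, and milt was not called. Miro had 60.1 and 61.3 FPKM (0.03). The pair had nearly equal FPKM in control and not in knockdown.

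**Figure D2:**
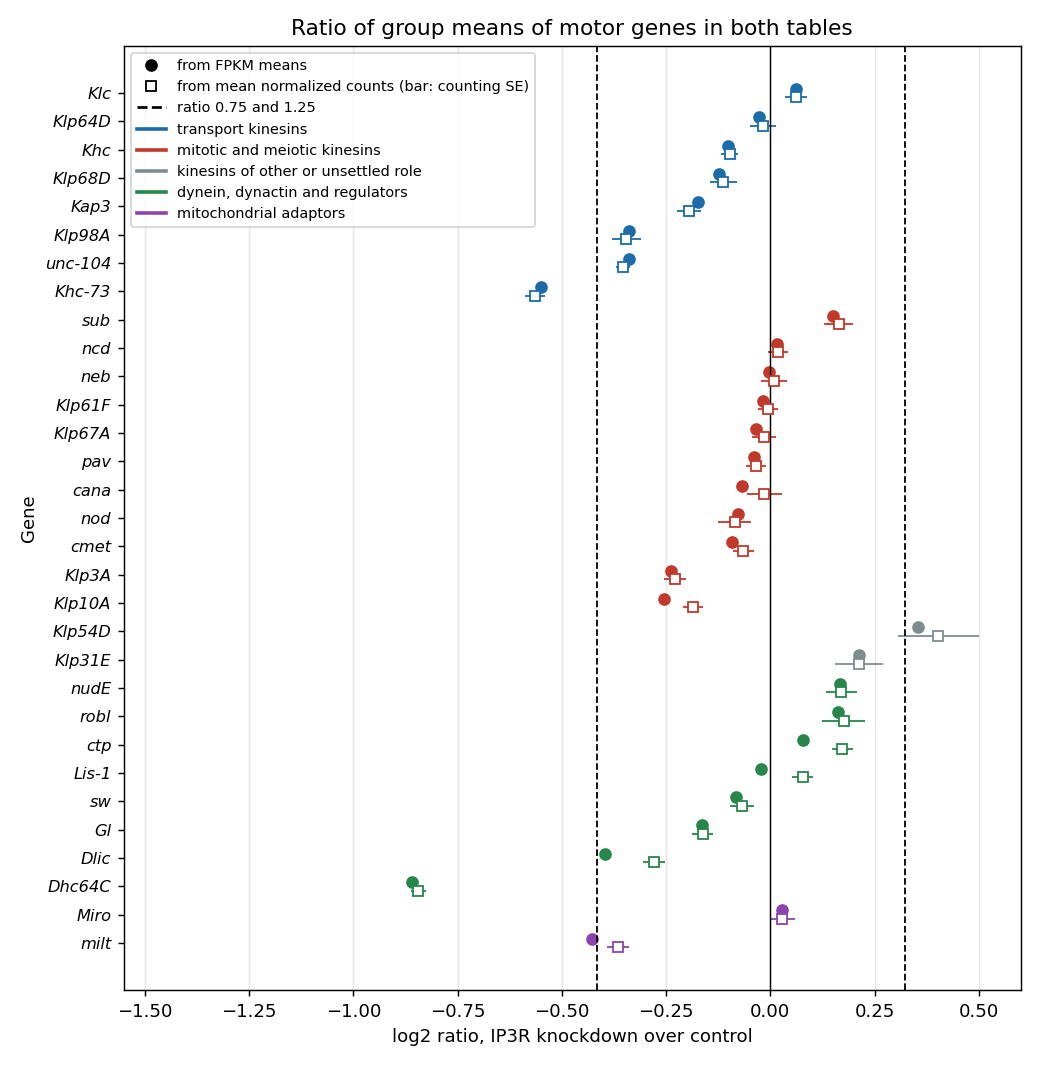
Log2 ratio of IP3R knockdown to control for each of the 31 motor genes, from FPKM means (filled circles) and from mean normalized counts (open squares, with bars for the counting standard error only), coloured by class, with dashed lines at the limits for lower and higher. Dhc64C and Khc-73 lie left of the lower line in both tables, Klp54D lies right of the upper line in both, and milt lies left of the lower line in FPKM only.

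Kinesins of cell division stood close to the control level. Of the 12 genes, 11 passed the minimum and none was called in either direction, with log2 ratios from -0.26 to 0.15 and a median of -0.04 in FPKM and -0.02 in counts. Klp61F, the bipolar motor that pushes spindle poles apart, had 71.5 FPKM in control and 70.7 in knockdown. Klp67A, which shortens microtubule plus ends at kinetochores, had 66.3 and 64.7 FPKM, and pav, a kinesin of the central spindle needed for cytokinesis, 84.8 and 82.6 FPKM. These 3 genes had log2 ratios between -0.04 and -0.02. The minus-end motor ncd, which focuses spindle poles, was the most abundant of the class and stood at 107 and 109 FPKM (0.01).

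The lowest values of this class were those of Klp10A, a microtubule depolymerase, at 81.7 and 68.5 FPKM (log2 ratios -0.26 in FPKM and -0.19 in counts), and of Klp3A, a chromatin-bound kinesin of the central spindle, at 55.6 and 47.1 FPKM (-0.24 and -0.23). The highest was that of sub, a kinesin of meiotic spindles and the central spindle, at 60.5 and 67.1 FPKM (0.15 and 0.16). Transcripts of nod, known for holding chromosomes on the female meiotic spindle, stood at 42.6 and 40.4 FPKM, and those of neb, which also binds chromosomes, at 43.8 and 43.7 FPKM. The genes cmet and cana encode relatives of the kinetochore motor CENP-E and lie head to head on chromosome 2L, cmet from 11261026 to 11269002 and cana from 11269780 to 11277846 (dm6). Their FPKM were 31.6 and 29.6 for cmet and 15.1 and 14.5 for cana, so cana had 0.480 of the FPKM of cmet in control and 0.488 in knockdown. As the pair is related in sequence, some reads may have been assigned to the wrong copy.

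Klp59C, a depolymerase related to Klp10A, was listed at 0 in both groups in both tables. For Klp59D, a further relative of the same family, the mean normalized counts were 0.30 and 0.87, about 1 read in all control libraries and 2 in both knockdown libraries, and no ratio is drawn from them.

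The kinesins of unsettled role had low levels. Klp54D stood at 6.48 FPKM in control and 8.28 in knockdown, with mean normalized counts of 159 and 210, the lowest among the 31 genes. The knockdown level was 128% of control in FPKM and 132% in counts (log2 ratios 0.35 and 0.40). Counting error alone gives its log2 ratio a standard error of 0.10, larger than that of any other of the 31 genes and reaching across the limit for a higher call. Klp31E, the next lowest in level, had 10.5 and 12.1 FPKM (0.21 and 0.21).

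Set side by side, the transport class had a median log2 ratio of -0.15 and the mitotic and meiotic class of -0.04, a difference of -0.11, and the ratios of the classes overlapped. With the decile medians of exon length subtracted the difference was -0.064, and with the medians of the 200 nearest genes -0.048. Their summed FPKM went from 538 to 489 for the 8 transport genes and from 661 to 637 for the 12 mitotic and meiotic genes. No test of this difference was possible, and genes are not replicates of a condition. Leaving out the genes whose exons overlap those of another gene turned the difference to 0.03. From the transport class that drops Klc, unc-104 and Kap3. Of the mitotic and meiotic genes above the minimum it leaves only Klp3A, Klp10A, pav and cana. Klp10A and Klp3A have the lowest ratios of that class, so the change reflects which genes remain.

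Lists of related genes gave a frame for these values. Non-motor mitosis genes, such as cyclins, checkpoint and kinetochore genes, had 33 symbols in the tables, with a median log2 ratio of 0.04. None was lower and 1 (3.03%) was higher, against 14.5% and 12.2% of all genes. The higher gene was pim, the fly securin, at 29.5 and 39.3 FPKM (0.41). Of 7 kinesin adaptors and regulators, 1 was lower (14.3%, against 14.5% of all genes), and the median was -0.14. The lower gene was Liprin-alpha, a scaffold of active zones that aids unc-104, at 50.8 and 31.0 FPKM (-0.71). It is in the longest decile of exon length, where 47.6% of genes were lower. Of 12 microtubule-associated genes, 3 were lower and none higher, against 14.5% lower among all genes, with a median of -0.13. All 3 are in the longest decile of exon length, where 47.6% of genes were lower, and with the decile median of each gene subtracted the median of the list was 0.08. They were futsch, an axonal microtubule-associated protein, at 32.99 and 14.7 FPKM (-1.17), shot, which links actin to microtubules, at 56.2 and 29.5 FPKM (-0.93), and Patronin, which protects minus ends, at 59.96 and 43.4 FPKM (-0.47).

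**Figure D3:**
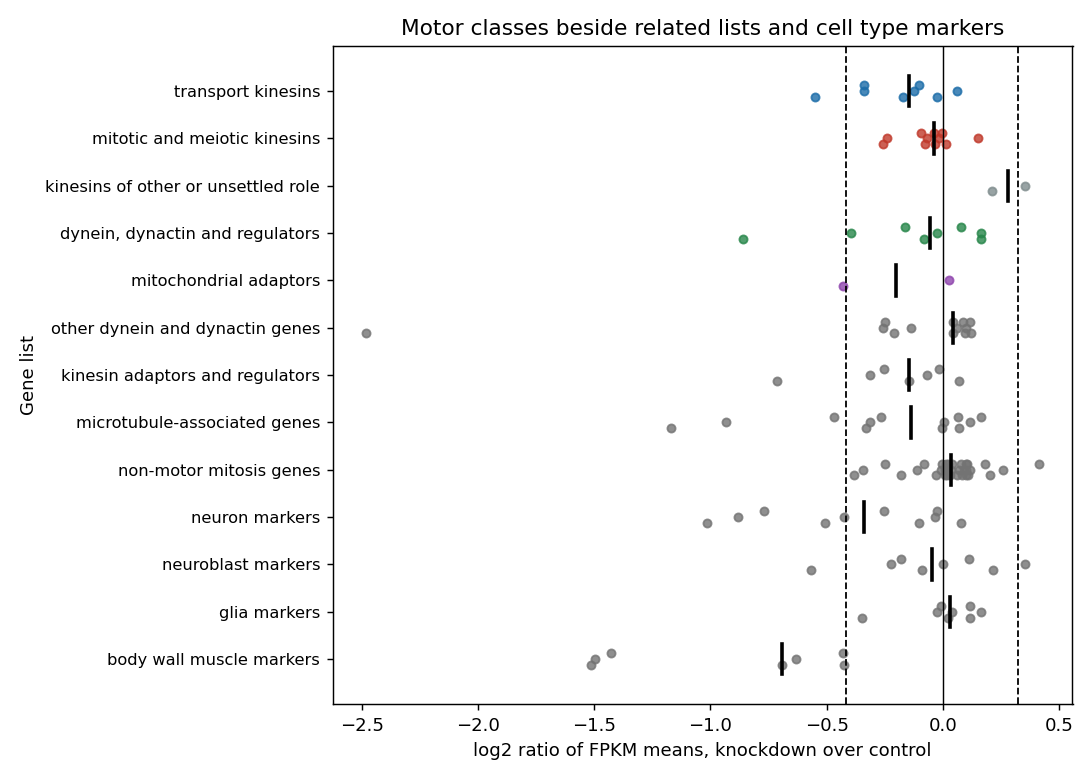
Log2 ratio of FPKM means, IP3R knockdown over control, for the genes above the minimum in each motor class and in 8 comparison or marker lists, with a black bar at each list's median and dashed lines at the limits for lower and higher. The medians of the mitotic and meiotic kinesins (-0.04), non-motor mitosis genes (0.04) and neuroblast markers (-0.05) lie near 0. Those of the transport kinesins (-0.15) and neuron markers (-0.34) lie lower, and that of the muscle markers lies at -0.69. With decile medians of exon length subtracted (not drawn), the transport median was -0.04 and the neuron marker median 0.02. It was 0.02 for mitotic and meiotic kinesins, 0.06 for non-motor mitosis genes, 0.06 for neuroblast markers and -0.70 for muscle markers.

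Exon length moved with the ratio. Over all 11110 genes with an exon length, the median log2 ratio by decile of summed exon length went from 0.16 in the shortest to -0.43 in the longest decile, in which 47.6% of genes were lower. For the 31 motor genes, Pearson's r between log2 exon length and log2 ratio was -0.72 (Spearman's rho -0.68), and for all 11110 genes r was -0.12 and rho -0.43. This is a relation across genes of the same libraries, which are not independent, and without Dhc64C the r of the motor genes was -0.64. The 6 motor genes of the longest decile were unc-104, Khc-73, cmet, cana, Dhc64C and milt, with a median log2 ratio of -0.38, and both lower genes were among them. The 8 genes of the shortest 7 deciles had a median of 0.11.

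Dhc64C has 14597 exon bases, the most of the 33 genes. Among the 200 genes closest to that length, a window chosen after seeing the data, the median log2 ratio was -0.61, with quartiles at -0.81 and -0.38, and 67.5% were lower by the 25% rule. Dhc64C, at -0.86, was 0.24 below that median, and 22.0% of these genes were at or below it. For Khc-73, with 9177 exon bases, the median of the 200 nearest genes was -0.53, and 47.0% were at or below its value of -0.55. The values for milt (-0.43) and unc-104 (-0.34) compare with medians of -0.45 and -0.46 of genes of their lengths. Khc-73, milt and unc-104 thus stood inside the middle range of genes as long as they are, and Dhc64C just under it.

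The 6 genes farthest from the median of their length neighbours were others. Dlic, with 3811 exon bases, lay at -0.40 where the 200 nearest genes had a median of -0.11, and 11.5% of them were at or below it. Above the medians lay cmet and cana, at -0.09 and -0.07 where the medians were -0.38 and -0.36, with 87.0% and 87.5% of the nearest genes at or below them. Klp31E (0.21 against -0.11), Klp54D (0.35 against 0.01) and ctp (0.08 against -0.18) also lay above theirs. The part of length in the ratios was not tested.

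**Figure D4:**
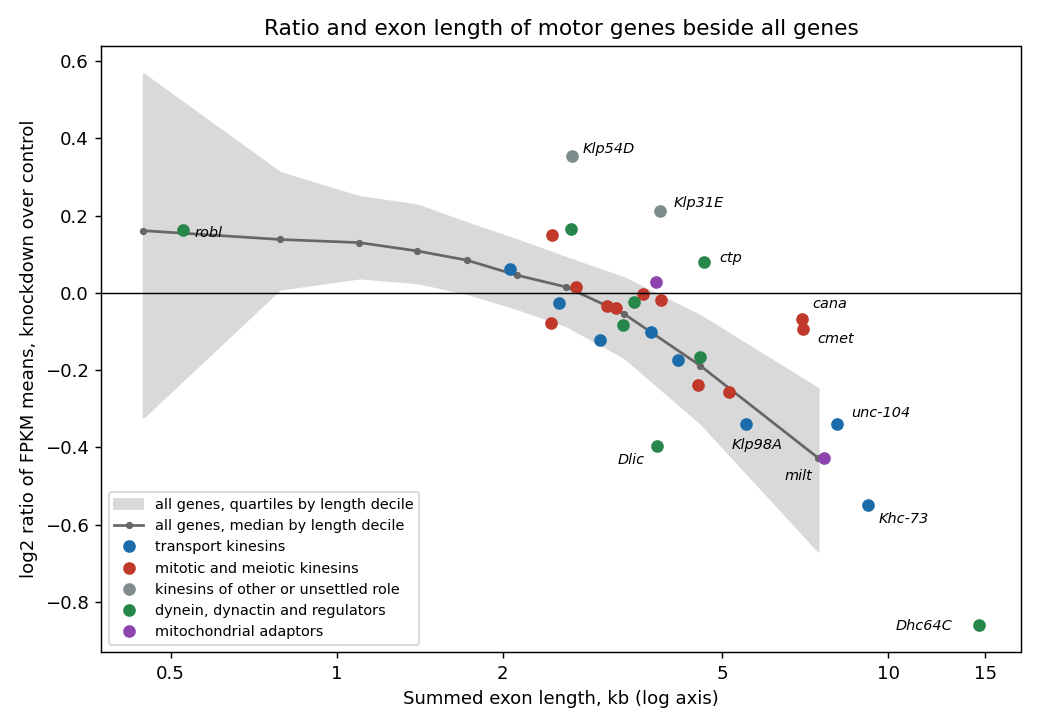
Log2 ratio of FPKM means, IP3R knockdown over control, against summed exon length in kb on a log axis, for the 31 motor genes coloured by class, with the median (grey line) and quartiles (grey band) of all genes by length decile. The ratios of the motor genes fall with length, and Dhc64C lies farthest to the lower right, at 14597 bases and -0.86. The line and band end at 7468 bases, the median length of the longest decile, short of milt, unc-104, Khc-73 and Dhc64C. Among the genes outside the band, cmet, cana, Klp31E, Klp54D, ctp, nudE and sub lie above it and Dlic below it.

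The groups also differed in cell type markers. None of the neuron, neuroblast and glia markers was at 0. Of 10 neuron markers, 5 were lower, among them brp (52.8 and 26.1 FPKM), CadN, elav and Appl, and their summed FPKM was 780 in control and 643 in knockdown. All 5 are in the longest decile of exon length, where 47.6% of genes were lower, and the median of the 10 markers was -0.34 as measured and 0.02 with the decile medians subtracted. The summed FPKM of 8 neuroblast markers was 387 and 386, with grh lower and wor higher. Of these, grh is also in the longest decile and stood at -0.14 in FPKM with the decile median subtracted. For 8 glia markers, led by Gs2, the sum was 797 and 823, with none called. In whole tissue, fewer cells of a type and less RNA per cell cannot be told apart. Markers of tissues outside the CNS were lower: 7 of 7 for body wall muscle, among them Mhc and sls (summed FPKM 662 and 411), 6 of 6 above the minimum for salivary gland (569 and 15.0), 4 of 4 for fat body (371 and 152), 3 of 4 for hemocytes (206 and 127) and 6 of 6 for cuticle (846 and 81.5). By the same rule, 14.5% of all genes were lower and 12.2% higher. The muscle markers Mhc, sls and bt and the hemocyte markers Hml and vkg are in the longest decile. With the decile medians subtracted, the median was -0.70 for the muscle list and -0.60 for the hemocyte list. Both germ line markers above the minimum, bam and vas, were higher (summed FPKM of the list 19.97 and 31.8). Motor genes are used in all of these tissues, and the part of these markers in the motor values was not tested.

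The targeted gene, Itp-r83A, stood at 24.7 FPKM in control and 15.0 in knockdown (log2 ratio -0.72 in FPKM and -0.61 in counts), and has 10331 exon bases. With the median of its length decile subtracted, the values were -0.29 and -0.18. Dcr-2, the gene of the dicer transgene, stood at 31.3 and 96.7 FPKM (1.63), and w, a copy of which is the eye colour marker of many transgenes, at 13.4 and 116 FPKM (3.11). Itp-r83A was thus lower and Dcr-2 higher in the group labelled as knockdown.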

How the data were processed

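The measurements are RNA-seq of whole larval CNS in 3 control and 2 IP3R knockdown libraries. Before deposit, the authors mapped the reads with TopHat (dm6) and took out PCR duplicates with Samtools. The authors then ran CuffDiff on the alignments, and DESeq as well as edgeR on GenomicRanges counts. Versions in the submitters' processing notes are 2.2.0 for Cuffdiff and 2.0.11 for TopHat2, and none for CASAVA, DESeq or edgeR. The deposited CuffDiff table holds the FPKM of each group. In the DESeq table the authors deposited a normalized signal, the group mean of scaled counts, and in the edgeR table the authors deposited an average log2 CPM over all libraries, used here only to see that 31 of the genes are in it. Columns of the authors' fold changes, test statistics and p-values were not used. No column holds a value per library. The authors named the groups of the DESeq table A and B, and in all rows the mean over all libraries equals the mean weighted 3 to 2 between A and B, within 0.1%, so A was taken as control. The mean normalized counts sum to 12.7 M in control and 11.9 M in knockdown. Removing duplicates without molecular identifiers can cap the counts of abundant transcripts.

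Ratios of group means were computed for genes with values above 0 in both groups and a mean FPKM of at least 1. Fold limits of 0.75 and 1.25 had to be met in both tables. Standard errors from counting treat libraries times mean normalized count as Poisson reads, cover counting error only, and ran from 0.02 to 0.10 on the log2 scale. Summed exon lengths, over all isoforms, and places came from Ensembl release 115 (BDGP6, dm6 coordinates), in which 98.9% of genes had a length. In that annotation the exons of 14 motor genes share 39 to 633 bases with another gene, and the counting is not stated to use strand. The genes named outside the list were mostly up to 4 called genes of each list with the largest change, or else the most abundant, with Itp-r83A, Dcr-2 and w. The last section also names genes of these lists in the longest decile of exon length, chosen after the values were seen. The motor genes, the classes and the lists were chosen with earlier results of these data known. A search for other kinesins by protein signature was not made. The code was tested on simulated data. Alternatives changed the fold limits, the tables required, the filter, the pseudocount, the scaling, the length correction and the genes in a class. Software was NumPy 2.4.6, pandas 2.3.3 and matplotlib 3.10.9 under Python 3.11.15.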

Additional observations from a re-analysis of the deposited data

How the results depend on the processing

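No paired analysis was possible because the tables carry no value per library, and for the same reason no library was left out in turn. Values within 0.1 on the log2 scale and counts within 1.5 times were read as equal. The number of lower motor genes, 2 as reported, was 0 at a ratio of 0.5, 5 at a ratio of 0.8 (Dhc64C, Khc-73, unc-104, Klp98A and milt), 1 after subtraction of the median of the length decile, 1 without Dhc64C and 1 without genes whose exons overlap another gene's. It was 0 after subtraction of the median of the 200 genes nearest in exon length and 0 without the 6 genes of the longest decile, both chosen after seeing the data. The number of higher genes, 1 as reported, was 0 at a ratio of 2 and 0 with a pseudocount of 1. It was 2 with no filter, where Klp59D enters on about 3 reads. After subtraction of the decile median it was 3 (Klp54D, cmet and cana). The share of all genes called after either length correction was not computed, so these counts cannot be set against it.

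The median log2 ratio of the transport kinesins, -0.15, was -0.044 after subtraction of the decile median and -0.032 after that of the nearest genes. For the mitochondrial adaptors, -0.20, it was 0.041 and 0.077 in the same order, and 0.028 without milt, the 1 adaptor in the longest decile. Leaving out overlapping genes put the mitotic and meiotic median at -0.15 and the difference between the classes, -0.11 as reported, at 0.030. That difference was -0.064 after subtraction of the decile median and -0.048 after that of the nearest genes. By construction, leaving out overlapping genes drops members of both classes, and of the mitotic and meiotic genes only Klp3A, Klp10A, pav and cana remain. For single genes, counts in place of FPKM moved 2 of 31 ratios by over 0.1, those of Dlic and Lis-1, and the length corrections moved 14 (decile) and 18 (nearest genes). The sign of the log2 ratio turned for 11 of 31 genes under each length correction, among them unc-104 (0.088 and 0.13), cmet (0.33 and 0.28) and cana (0.36 and 0.30), none of which was called as reported. It turned for 2 genes with counts in place of FPKM and for 2 after centring on the median of all genes. Several alternatives could not move a value: all 31 genes pass a mean FPKM of 5, and leaving out Dhc64C touches no class median but that of the dynein genes. The lack of a spread between libraries limits every value, and for Klp54D the low count does as well.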

Other observations

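In the longest decile of exon length, whose median log2 ratio was -0.43, members of several lists stood on both sides of that median, a grouping made after the values were seen and not tested. The mitotic kinesins cmet and cana stood at -0.09 and -0.07. The 4 long genes among the non-motor mitosis genes, asp, mud, tacc and msps, stood at -0.34, -0.18, 0.09 and -0.38, all above the median. So did unc-104 (-0.34), CLIP-190 (-0.25), 2 of 3 long kinesin adaptors, 3 of 6 long microtubule-associated genes and 3 of 8 long neuron markers, and Khc-73 (-0.55) lay below it. Among long neuronal genes, cpx (-0.04), fne (0.08) and tau (0.01) lay near 0 with 11414, 9561 and 7252 exon bases. The rest of the long neuron markers lay lower. They were brp (-1.02), CadN (-0.88), elav (-0.77), Appl (-0.51), Syn (-0.43) and Syt1 (-0.25). The axonal gene futsch lay at -1.17.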
